A study of Homo sapiens with 18 samples.

Results

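HAIR-M is a human cell line of marginal zone lymphoma (MZL), a cancer of mature B cells, and the data described here are its cells kept in the drug solvent dimethyl sulfoxide (DMSO) for 12 h or for 8 h. The comparison takes the 3 libraries labelled DMSO at 12 h and the 3 libraries labelled DMSO at 8 h, 6 of the 18 libraries of the series, and covers all genes. Both groups were grown with fetal bovine serum, antibiotics and L-glutamine and received no copanlisib, so the comparison asks how these cells changed in culture between 8 and 12 h without drug. The other libraries used beside them are 3 each of cells given copanlisib at 5 nM, which inhibits PI3K (phosphoinositide 3-kinases), for 12 or 8 h, and 3 of DMSO cells at 4 h. The series rests on 1 cell line. The sources used here do not give when the cells were last fed or how dense they were, so time in solvent and any handling that went with it cannot be told apart.

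Several gene programmes that cultured lymphocytes adjust over hours serve to read the comparison. Heat shock genes encode chaperones that refold proteins and are switched on by heat shock factors that bind heat shock elements. Hypoxia genes are switched on by hypoxia-inducible factors (HIF) when oxygen is low, and many of them encode glycolytic enzymes. Genes of DNA replication are switched on by E2F factors as a cell passes from G1 into S phase, and interferon-stimulated genes and NF-kB targets carry inflammatory signals in B cells.

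The reads counted on genes numbered 18096610, 16383898 and 19573586 in the DMSO 12 h libraries, and 21583576, 16467953 and 13587017 in the DMSO 8 h libraries. Levels are given as CPM, scaled counts, the reads of a gene in parts per 1e6 of the TMM-scaled gene reads of its library. The marker sums in this paragraph are CPM without the TMM scaling. Mitochondrial genes took 9.63% to 10.02% of the gene reads at 12 h and 9.07% to 9.36% at 8 h, a difference that moved with the groups and whose part in the results was not tested. All 8 B cell markers were detected, with summed levels of 3780 to 3830 CPM at 12 h and 4060 to 4200 CPM at 8 h. Of 8 T and NK cell markers, CD3D, CD3G, CD8A and NCAM1 had no read in any of the 6 libraries, and the sum was 10.6 to 11.3 CPM at 12 h and 13.6 to 14.9 CPM at 8 h, nearly all of it NKG7. Myeloid markers summed to 13.3 to 14.7 CPM at 12 h and 12.6 to 14.6 CPM at 8 h, and stromal and epithelial markers to 51.3 to 56.9 CPM at 12 h and 54.4 to 60.2 CPM at 8 h. The labels' extraction protocol speaks of retinas, but the 7 retina markers summed to 2.82 to 2.99 CPM at 12 h and 2.78 to 3.16 CPM at 8 h, and CRX and RPE65 had no read. The 4 h copanlisib replicates 1 and 2 differed in quality from the rest, with 8.73% and 5.22% unmapped reads. They enter the comparison through the filter on low counts, the adjustment and the shared estimate of the spread, and 17007 genes were tested without them.

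Most measured chaperone and hypoxia genes fell and most replication genes rose between 8 and 12 h, and most called genes changed by less than 2-fold. Of 16122 genes tested, 2155 were higher at 12 h (13.4%) and 1996 were lower (12.4%), 4151 in all (25.7%), by edgeR's quasi-likelihood test at a Benjamini-Hochberg adjusted p under 0.05. A change of at least 2-fold was seen for 229 of them (1.42% of the genes tested), 90 higher and 139 lower. The median size of the called log2 fold changes was 0.325, and the median log2 fold change over all genes was −0.015. In 44.9% of the genes tested the 12 h and 8 h libraries did not overlap. Nothing in the labels ties the replicates to separate cultures, and the p-values then reflect only the spread among these libraries, which may be technical. In bulk RNA, a smaller share of cells of one kind and less RNA per cell cannot be told apart. Without replicates 1 and 2 of copanlisib at 4 h, 5540 genes passed.

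**Figure D1:**
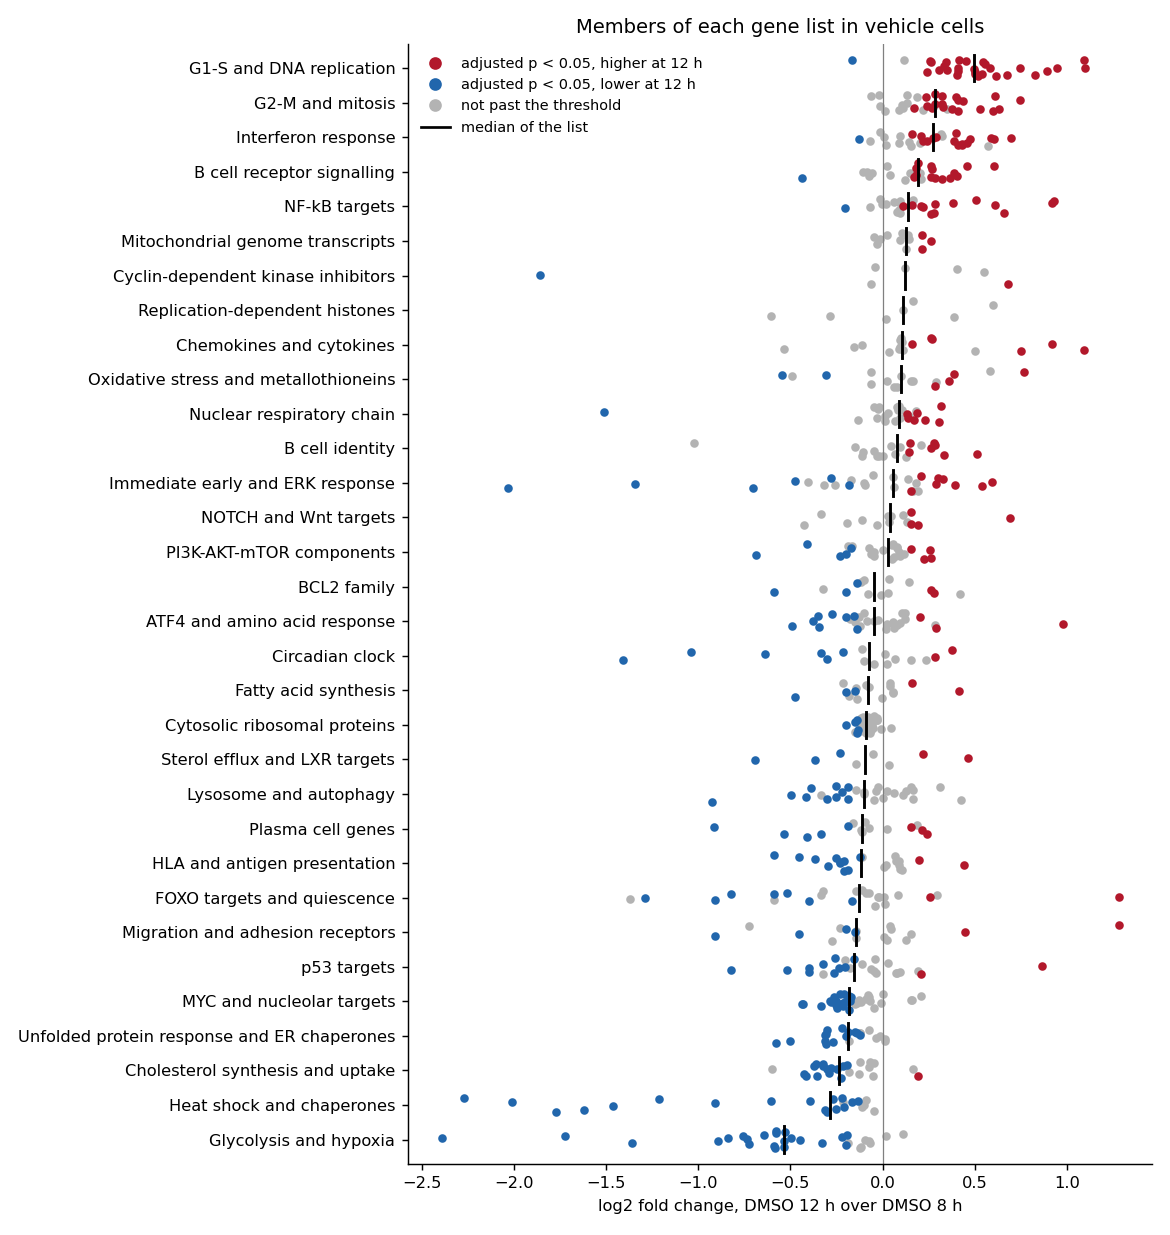
Log2 fold change of DMSO 12 h over DMSO 8 h (horizontal axis) for every tested member of each gene list other than markers of other cell types (rows, sorted by median), one point per gene, with the list's median as a black bar. Heat shock and glycolysis lists hold blue points (lower at 12 h) down to −2.39 for ADM, while G1-S genes lie to the right of 0 except CCND2.

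Heat shock genes held some of the deepest falls. Of 22 measured members of the heat shock and chaperone list, 17 were lower at 12 h, none was higher and 5 did not pass, with a median log2 fold change of −0.285, against 12.4% lower and a median of −0.015 over all genes. In 20 of the 22 members all 3 libraries at 12 h lay below all 3 at 8 h, an arrangement that 22.8% of all genes tested showed. The fall was steepest in the stress-inducible HSP70 genes and their partners. The promoters of HSPA6, an inducible HSP70, and HSPA8, the HSP70 of unstressed cells, are shown because both carry a heat shock element. They are from RefSeq (GRCh38.p14), 250 bases before to 50 bases after the gene's start, 5′ to 3′ on the gene's strand, at chr1:161524290-161524589 (plus strand) and chr11:123062087-123062386 (minus strand), with capitals marking matches on either strand to the heat shock element, which was searched as GAA, any 2 letters, TTC, any 2 letters and GAA.
HSPA6: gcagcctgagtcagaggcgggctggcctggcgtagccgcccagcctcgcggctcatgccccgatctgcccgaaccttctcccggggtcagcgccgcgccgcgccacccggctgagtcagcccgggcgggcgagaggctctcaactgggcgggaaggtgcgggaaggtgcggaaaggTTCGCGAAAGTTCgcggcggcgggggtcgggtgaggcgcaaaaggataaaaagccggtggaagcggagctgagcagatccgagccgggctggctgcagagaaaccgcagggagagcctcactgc
HSPA8: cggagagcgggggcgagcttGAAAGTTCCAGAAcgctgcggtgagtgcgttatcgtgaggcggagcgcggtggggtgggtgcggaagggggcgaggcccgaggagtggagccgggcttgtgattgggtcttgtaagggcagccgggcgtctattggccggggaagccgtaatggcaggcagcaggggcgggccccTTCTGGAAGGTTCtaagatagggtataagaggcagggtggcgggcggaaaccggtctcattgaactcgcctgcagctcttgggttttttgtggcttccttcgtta
Of 16 lower members with a promoter in the RefSeq table, 4 held this motif (CHORDC1, DNAJA1, HSPA6 and HSPA8), as did 0.487% of all 27305 promoters. Of all 20 measured members with a promoter, called or not, the same 4 held it. A match describes the letters and is no evidence of binding.

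HSPA6 (ENSG00000173110.7, chr1:161524540-161526910) was at 8.75, 9.78 and 8.37 CPM in the DMSO 12 h libraries, against 44.4, 43.1 and 41.5 CPM in the DMSO 8 h libraries. It fell by 2.27 ± 0.09 on the log2 scale (SE of the fit, edgeR adjusted p = 5.3e-16), and every 12 h library lay under every 8 h library. HSPA1B, an inducible HSP70, was at 36.0, 41.3 and 37.6 CPM at 12 h, against 158, 153 and 150 CPM at 8 h (−2.01 ± 0.06, edgeR adjusted p = 8.9e-20). Its near-identical neighbour HSPA1A was at 39.9, 44.1 and 41.1 CPM at 12 h, against 144, 143 and 140 CPM at 8 h (−1.77 ± 0.06, edgeR adjusted p = 1.2e-18). The groups were far apart for both, although reads that match both copies were not counted, so the level of each is uncertain, as is that of HSPA6.

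The HSP70 co-chaperones followed the same course. DNAJB1, an HSP40 that delivers clients to HSP70, was at 100, 102 and 96.9 CPM at 12 h, against 305, 308 and 305 CPM at 8 h (−1.62 ± 0.04, edgeR adjusted p = 8.5e-20). BAG3, which releases clients from HSP70 and couples it to autophagy, was at 34.1, 38 and 33.1 CPM at 12 h, against 95.8, 96.5 and 96.2 CPM at 8 h (−1.46 ± 0.07, edgeR adjusted p = 9.8e-15). Neither gene's groups overlapped. DNAJB4, another HSP40, averaged 12.1 ± 0.95 CPM at 12 h and 28.1 ± 1.0 CPM at 8 h (SD over 3 libraries each), and changed by −1.21 ± 0.08. Outside the list, SERPINH1, the collagen chaperone HSP47, was at 49.2, 50.8 and 51.6 CPM at 12 h, against 143, 141 and 135 CPM at 8 h (−1.47 ± 0.06, edgeR adjusted p = 1.5e-15). HSF4, a heat shock factor, averaged 8.22 ± 1.0 CPM at 12 h and 21.3 ± 0.76 CPM at 8 h (−1.37 ± 0.11). Both were among the 12 lowest protein-coding genes.

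The abundant chaperones fell less. HSPH1, the HSP110 that recharges HSP70, was at 297, 280 and 285 CPM at 12 h, against 513, 563 and 541 CPM at 8 h (−0.91 ± 0.06, edgeR adjusted p = 3.4e-12). HSPA8 averaged 1770 ± 29 CPM at 12 h and 2200 ± 95 CPM at 8 h (−0.31 ± 0.04, edgeR adjusted p = 4.3e-06), and HSP90AA1, the inducible HSP90, 2750 ± 50 CPM at 12 h and 3270 ± 120 CPM at 8 h (−0.25 ± 0.06, edgeR adjusted p = 0.0013). The 12 h libraries lay below the 8 h libraries in all 3 genes. HSPD1, the mitochondrial HSP60, was at −0.09 ± 0.04 (edgeR adjusted p = 0.13) and HSF1, the main heat shock factor, at −0.11 ± 0.07 (edgeR adjusted p = 0.29).

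Over the 3 times of DMSO cells the heat shock genes took different paths. HSPA1A averaged 137, 142 and 41.7 CPM at 4, 8 and 12 h, and BAG3 93.3, 96.1 and 35.1 CPM. HSPH1 averaged 324, 539 and 287 CPM at these times and HSPA8 1400, 2200 and 1770 CPM. The first pair had close means at 4 and 8 h and its lowest at 12 h, while the second pair had its highest mean at 8 h. Between 8 and 4 h, 13 of the 22 members were higher and 3 lower with a median of 0.185, where 29.8% of all genes passed, 13.9% higher and 16% lower. The median between 12 and 8 h was −0.285. Both comparisons use the same 8 h libraries.

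**Figure D2:**
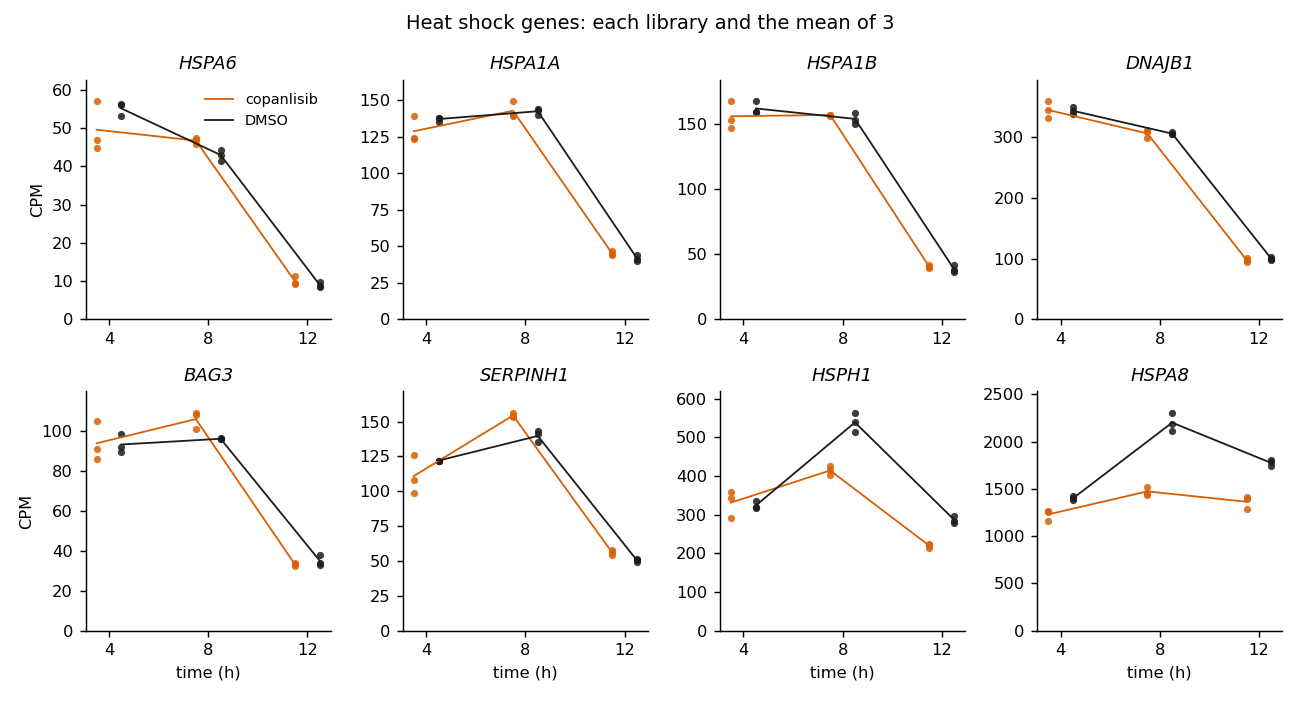
CPM (vertical axis, starting at 0) of 8 heat shock genes at 4, 8 and 12 h (horizontal axis) in copanlisib (orange) and DMSO (black) cells, with each library as a point and lines through the means of 3. In DMSO cells HSPA6 stands at 8.37 to 9.78 CPM at 12 h against 41.5 to 44.4 CPM at 8 h, and HSPA8 is highest at 8 h.

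Most measured genes of hypoxia and glycolysis were lower at 12 h. Of 30 measured members, 22 were lower at 12 h, none was higher and 8 did not pass, with a median log2 fold change of −0.533, against 12.4% lower over all genes. The list mixes targets of HIF with glycolytic enzymes, and both kinds were among the 22. The promoters of BNIP3, a receptor for the removal of mitochondria, and LDHA, which makes lactate from pyruvate, are shown because they hold the hypoxia response core ACGTG. They are RefSeq promoters (GRCh38.p14) at chr10:131981874-131982173 (minus strand) and chr11:18394313-18394612 (plus strand), with capitals at each match to ACGTG on either strand.
BNIP3: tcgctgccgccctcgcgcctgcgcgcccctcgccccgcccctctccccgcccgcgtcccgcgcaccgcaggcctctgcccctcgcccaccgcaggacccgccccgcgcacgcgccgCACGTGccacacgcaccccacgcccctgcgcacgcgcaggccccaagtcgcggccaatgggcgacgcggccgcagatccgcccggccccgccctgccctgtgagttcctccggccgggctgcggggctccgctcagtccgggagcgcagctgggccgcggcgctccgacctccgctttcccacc
LDHA: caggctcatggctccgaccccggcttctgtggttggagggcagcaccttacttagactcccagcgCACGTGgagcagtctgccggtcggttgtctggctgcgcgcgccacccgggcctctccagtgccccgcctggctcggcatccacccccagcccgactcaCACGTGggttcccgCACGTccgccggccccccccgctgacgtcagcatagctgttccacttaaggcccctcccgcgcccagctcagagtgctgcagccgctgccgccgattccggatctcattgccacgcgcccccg
Where 2 matches overlap they spell the E-box CACGTG, which reads the same on both strands. This is so at 1 place in BNIP3 and 2 places in LDHA, while the LDHA match nearest the start stands alone. Among 19 lower members with a promoter in the table, 10 held the core, against 21.6% of all promoters. Of all 26 measured members with a promoter, called or not, 11 held it.

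ADM, the vasodilator peptide adrenomedullin, had the lowest fold change of the named protein-coding genes. It was at 1.67, 2.25 and 2.34 CPM at 12 h, against 12.8, 8.66 and 11.2 CPM at 8 h (−2.39 ± 0.17, edgeR adjusted p = 6.4e-11). PFKFB4, which makes the glycolysis activator fructose 2,6-bisphosphate, was at 7.86, 7.29 and 8.37 CPM at 12 h, against 30.1, 17.5 and 30.2 CPM at 8 h (−1.72 ± 0.15, edgeR adjusted p = 2.9e-09). Replicate 2 at 8 h was the lowest of its group for both genes, and still above every 12 h library. BNIP3 was at 11.4, 13 and 11.6 CPM at 12 h, against 33.7, 26.3 and 32.1 CPM at 8 h (−1.36 ± 0.10, edgeR adjusted p = 4.9e-11). MXI1, a MAX partner that opposes MYC and lies outside the list, was at 5.41, 5.83 and 5.46 CPM at 12 h, against 15.3, 15.9 and 14.5 CPM at 8 h (−1.46 ± 0.12, edgeR adjusted p = 4.5e-10). In neither gene did the groups overlap.

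The glycolytic enzymes moved by less, from a high level and with small spread. PGK1, phosphoglycerate kinase, was at 646, 638 and 661 CPM at 12 h, against 1200, 1120 and 1150 CPM at 8 h (−0.84 ± 0.04, edgeR adjusted p = 9.2e-15). LDHA was at 683, 661 and 701 CPM at 12 h, against 1190, 1100 and 1160 CPM at 8 h (−0.76 ± 0.05, edgeR adjusted p = 3.4e-12). TPI1, triosephosphate isomerase, averaged 530 ± 13 CPM at 12 h and 883 ± 41 CPM at 8 h (−0.74 ± 0.05). All 3 enzymes were lower in every 12 h library. ALDOC, an aldolase, fell by 0.89 ± 0.06 on the log2 scale, and GAPDH, often used as a reference gene, by 0.53 ± 0.04. VEGFA, the angiogenic growth factor, averaged 45.1 ± 2.4 CPM at 12 h and 67.2 ± 5.5 CPM at 8 h (−0.58 ± 0.06, edgeR adjusted p = 4.7e-08), and EGLN3, an oxygen-sensing hydroxylase, was at −0.64 ± 0.12. HIF1A, which encodes the oxygen-regulated HIF subunit, was at 208, 196 and 200 CPM at 12 h, against 192, 197 and 208 CPM at 8 h (0.02 ± 0.05, edgeR adjusted p = 0.80), and its groups overlapped. In DMSO cells at 4, 8 and 12 h, BNIP3 averaged 53.1, 30.7 and 12.0 CPM and LDHA 1450, 1150 and 682 CPM, each lower at each later time.

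**Figure D3:**
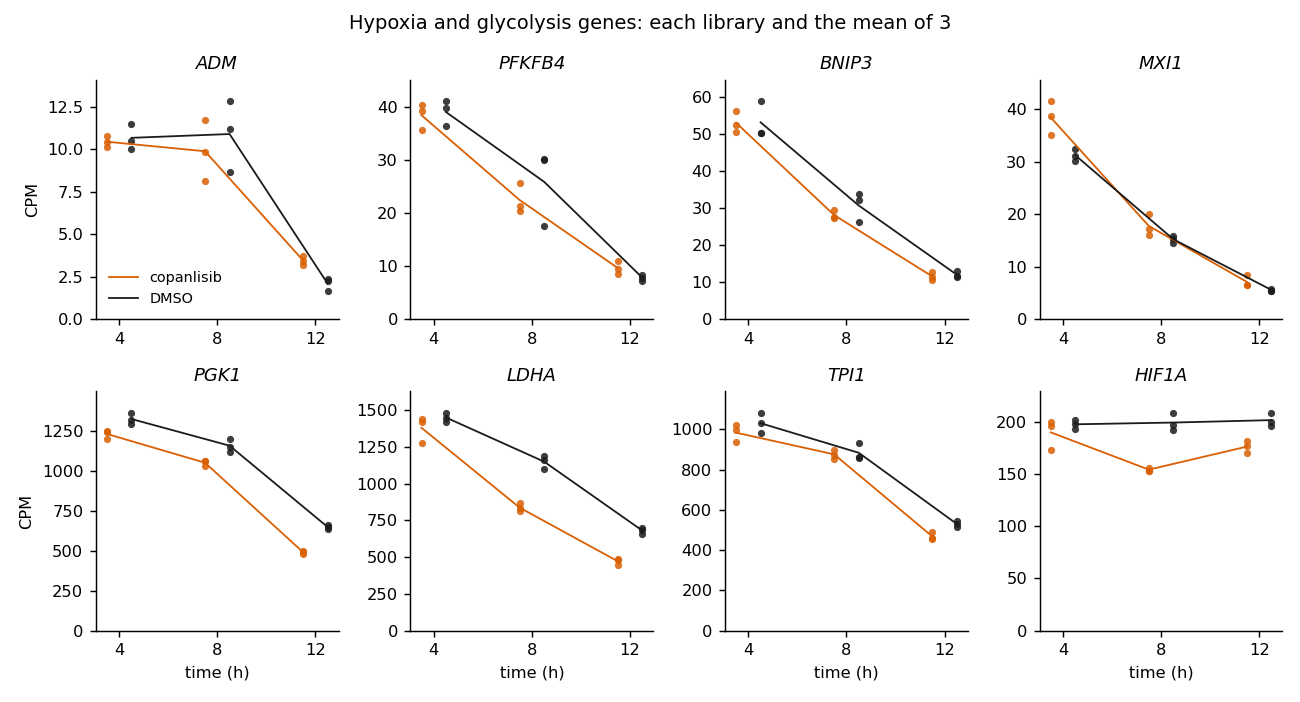
CPM (vertical axis, starting at 0) of 8 hypoxia and glycolysis genes at 4, 8 and 12 h (horizontal axis) in copanlisib (orange) and DMSO (black) cells, each library as a point, lines through the means of 3. LDHA in DMSO cells lies between 661 and 701 CPM at 12 h, under the 1100 to 1190 CPM at 8 h, while HIF1A overlaps between the 2 times.

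Most measured genes of DNA replication rose. Of 30 measured members of the G1-S and DNA replication list, 28 were higher at 12 h, 1 was lower (CCND2) and 1 did not pass (MCM6), with a median log2 fold change of 0.498, against 13.4% higher over all genes. In 29 members every 12 h library lay above every 8 h library, against 22.1% of all genes. The promoters of CDT1, which licenses replication origins, and PCNA, the sliding clamp of DNA polymerases, are shown because they hold the E2F letters TTTCCCGC. They are RefSeq promoters (GRCh38.p14) at chr16:88803539-88803838 (plus strand) and chr20:5126573-5126872 (minus strand), with capitals at matches on either strand.
CDT1: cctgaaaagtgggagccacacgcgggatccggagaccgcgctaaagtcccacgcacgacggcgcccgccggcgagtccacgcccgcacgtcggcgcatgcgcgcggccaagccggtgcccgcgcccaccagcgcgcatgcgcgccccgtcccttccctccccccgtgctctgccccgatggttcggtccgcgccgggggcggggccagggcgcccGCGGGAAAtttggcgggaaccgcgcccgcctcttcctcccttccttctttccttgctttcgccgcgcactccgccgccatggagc
PCNA: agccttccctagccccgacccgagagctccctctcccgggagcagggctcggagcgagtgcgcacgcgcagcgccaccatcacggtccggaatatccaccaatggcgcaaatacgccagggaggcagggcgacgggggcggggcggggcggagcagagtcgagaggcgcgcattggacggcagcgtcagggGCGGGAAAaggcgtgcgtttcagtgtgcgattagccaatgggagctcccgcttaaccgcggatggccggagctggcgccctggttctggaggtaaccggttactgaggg
Of 23 higher members with a promoter in the table, 7 held the motif, against 1.66% of all promoters. Of all 24 measured members with a promoter, called or not, the same 7 held it.

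RRM2, the subunit that limits ribonucleotide reductase and so the supply of deoxynucleotides, was at 243, 240 and 246 CPM at 12 h, against 116, 115 and 112 CPM at 8 h (1.09 ± 0.04, edgeR adjusted p = 2.8e-16). CCNE2, cyclin E2, was at 16.3, 17.1 and 15.6 CPM at 12 h, against 7.45, 7.93 and 7.43 CPM at 8 h (1.1 ± 0.10, edgeR adjusted p = 6.6e-09). Each 12 h library lay far above the 8 h range in both genes. CDC45, part of the replicative helicase, was at 34.0, 35.4 and 34.7 CPM at 12 h, against 19.8, 19.1 and 16.8 CPM at 8 h (0.89 ± 0.07, edgeR adjusted p = 1.9e-10). TK1, thymidine kinase, averaged 81.3 ± 3.6 CPM at 12 h and 48.4 ± 0.89 CPM at 8 h (0.75 ± 0.08), and CDT1 86.1 ± 1.1 CPM at 12 h and 57.4 ± 2.3 CPM at 8 h (0.58 ± 0.08). The helicase subunit MCM7 was at 341, 350 and 364 CPM at 12 h, against 267, 256 and 271 CPM at 8 h (0.41 ± 0.05, edgeR adjusted p = 4.1e-07), and PCNA rose by 0.33 ± 0.05 on the log2 scale. None of these groups overlapped. The D cyclins, which start the passage through G1, split. CCND3 rose by 0.54 on the log2 scale, while CCND2 was at 494, 494 and 501 CPM at 12 h, against 557, 566 and 548 CPM at 8 h (−0.17 ± 0.04, edgeR adjusted p = 8.4e-04).

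Outside the list, ESCO2, which acetylates cohesin in S phase, led the named protein-coding genes at 23.1, 23.3 and 22.2 CPM at 12 h, against 10.0, 10.3 and 9.71 CPM at 8 h (1.19 ± 0.09, edgeR adjusted p = 2.7e-10). SPC24, a kinetochore subunit, averaged 30.1 ± 0.96 CPM at 12 h and 14 ± 1.3 CPM at 8 h (1.1 ± 0.09). In DMSO cells at 4, 8 and 12 h, RRM2 averaged 125, 114 and 243 CPM and CDC45 16.4, 18.6 and 34.7 CPM, each with its highest mean at 12 h. Between 8 and 4 h, 8 members of the replication list were higher and 4 lower (median 0.0236), against 13.9% and 16% of all genes.

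Mitotic genes rose in part. Of 32 measured G2-M members, 19 were higher, none was lower and 13 did not pass, with a median of 0.282, against 13.4% higher over all genes. AURKB, the kinase of the chromosomal passenger complex, averaged 75.3 ± 4.2 CPM at 12 h and 48.5 ± 2.2 CPM at 8 h (0.63 ± 0.06, edgeR adjusted p = 6.8e-09). FOXM1, a transcription factor of mitotic genes, averaged 70.0 ± 3.1 CPM at 12 h and 46.3 ± 2.0 CPM at 8 h (0.60 ± 0.06), and the spindle motor gene KIF11 rose by 0.61 ± 0.07. The proliferation marker MKI67 was at 236, 235 and 231 CPM at 12 h, against 174, 202 and 186 CPM at 8 h (0.32 ± 0.05, edgeR adjusted p = 3.4e-05). The 12 h libraries were above the 8 h libraries in these genes. CCNB1, cyclin B1 of mitotic entry, was at 98.3, 91.2 and 97.0 CPM at 12 h, against 93.5, 97.5 and 98.6 CPM at 8 h (−0.01 ± 0.05, edgeR adjusted p = 0.87), and its groups overlapped. CCNB2, CDC20 and PTTG1 did not pass either, with log2 fold changes of −0.06, 0.01 and −0.02. Between 8 and 4 h, 17 of the 32 members were lower and 1 higher (median −0.172), against 16% and 13.9% of all genes. Of 7 inhibitors of cyclin-dependent kinases, CDKN2D (p19) was higher at 0.68 ± 0.14 (edgeR adjusted p = 4.7e-04). CDKN1C (p57), scarce at 0.314 ± 0.097 CPM at 12 h and 1.20 ± 0.24 CPM at 8 h, was lower (edgeR adjusted p = 5.1e-04).

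Some interferon-stimulated genes and chemokines were higher at 12 h. Of 29 measured interferon response genes, 16 were higher, 1 was lower (OAS1) and 12 did not pass, with a median log2 fold change of 0.276, against 13.4% higher and 12.4% lower over all genes. The promoter of IFI6, an interferon-induced mitochondrial protein, is shown because it repeats the interferon-stimulated response element, searched as GAAA, any 2 letters and GAAA. It is the RefSeq promoter (GRCh38.p14) at chr1:27672143-27672442 (minus strand), with capitals at matches on either strand.
IFI6: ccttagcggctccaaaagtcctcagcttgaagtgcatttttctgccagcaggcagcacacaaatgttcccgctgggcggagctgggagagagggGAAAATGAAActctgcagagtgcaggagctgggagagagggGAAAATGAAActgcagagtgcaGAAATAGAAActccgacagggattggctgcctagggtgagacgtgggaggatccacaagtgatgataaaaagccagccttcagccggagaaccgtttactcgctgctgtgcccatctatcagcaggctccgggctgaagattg
Of 12 higher members with a promoter in the table, 8 held the element, against 3.65% of all promoters. Of all 22 measured members with a promoter, called or not, 14 held it. The element was thus common in the whole list, and a link with the rise was not tested.

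IFI6 was at 45.8, 46.7 and 46.6 CPM at 12 h, against 30.3, 27.4 and 27.7 CPM at 8 h (0.70 ± 0.10, edgeR adjusted p = 3.1e-06). IFI44, another interferon-induced gene, averaged 45.2 ± 1.4 CPM at 12 h and 29.7 ± 0.62 CPM at 8 h (0.61 ± 0.06), and the antiviral GTPase gene MX2 148 ± 0.93 CPM at 12 h and 109 ± 2.8 CPM at 8 h (0.43 ± 0.04). No 12 h library of the 3 genes was within the 8 h range. Between 8 and 4 h, 17 of the 29 interferon response genes were already higher and 1 lower (median 0.243), against 13.9% and 16% of all genes. OAS1, an RNA sensor, averaged 82.5 ± 1.9 CPM at 12 h and 90.3 ± 0.23 CPM at 8 h (−0.13 ± 0.04, edgeR adjusted p = 0.032), a call lost without any 1 DMSO library except replicate 3 at 12 h. Of 17 measured chemokines and cytokines, 6 were higher, none was lower and 11 did not pass (median 0.107), against the same 13.4% and 12.4%. CXCL9, a ligand of the chemokine receptor CXCR3 of T cells, was at 219, 201 and 219 CPM at 12 h, against 103, 103 and 94.4 CPM at 8 h (1.09 ± 0.06, edgeR adjusted p = 1.1e-12). CXCL10, a second ligand of CXCR3, was at 969, 904 and 982 CPM at 12 h, against 509, 514 and 487 CPM at 8 h (0.92 ± 0.06, edgeR adjusted p = 1.3e-11). The 12 h libraries of both lay well above the 8 h libraries. In DMSO cells at 4, 8 and 12 h, CXCL9 averaged 86.0, 99.9 and 213 CPM and CXCL10 301, 503 and 952 CPM. Between 8 and 4 h, 5 of the 17 chemokines and cytokines were higher and 8 lower, against the same 13.9% and 16%. XCL1, lymphotactin, averaged 83.3 ± 6.4 CPM at 12 h and 69.5 ± 1.5 CPM at 8 h (0.26 ± 0.07, edgeR adjusted p = 0.0043), and its near-identical copy XCL2 makes its count uncertain.

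NF-kB targets were higher in part. Of 26 measured members, 13 were higher, 1 was lower (NFKBIZ) and 12 did not pass, with a median of 0.135, where 13.4% of all genes were higher and 12.4% lower. NFKBIA, the inhibitor that NF-kB induces against itself, was at 431, 426 and 445 CPM at 12 h, against 288, 280 and 286 CPM at 8 h (0.61 ± 0.04, edgeR adjusted p = 8.5e-11). LTA, the cytokine lymphotoxin alpha, was at 37.7, 39.6 and 41.2 CPM at 12 h, against 20.4, 21.9 and 19.9 CPM at 8 h (0.93 ± 0.07, edgeR adjusted p = 1.7e-10). The groups of neither gene overlapped. TNF averaged 37.5 ± 1.1 CPM at 12 h and 23.9 ± 2.0 CPM at 8 h (0.66 ± 0.07), and BIRC3, an inhibitor of cell death, 267 ± 6.9 CPM at 12 h and 188 ± 5.8 CPM at 8 h (0.51 ± 0.05). The NF-kB subunit genes NFKB1, RELB and NFKB2 did not pass, at 0.00, 0.02 and 0.08. At 4, 8 and 12 h NFKBIA averaged 585, 285 and 434 CPM in DMSO cells, and TNF 41.2, 23.9 and 37.5 CPM, both lowest at 8 h. Between 8 and 4 h, 19 of the 26 members were lower and 2 higher (median −0.503), against 16% and 13.9% of all genes.

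**Figure D4:**
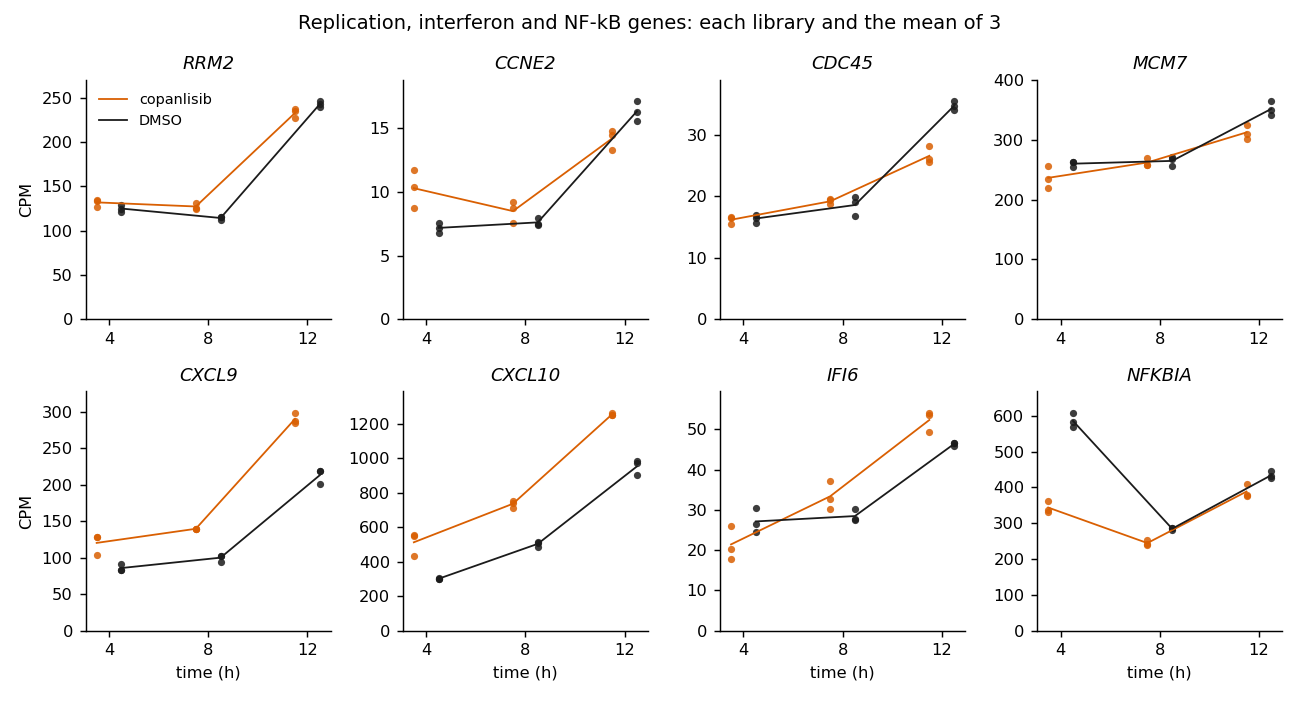
CPM (vertical axis, starting at 0) of 4 replication genes (top) and of CXCL9, CXCL10, IFI6 and NFKBIA (bottom) at 4, 8 and 12 h (horizontal axis) in copanlisib (orange) and DMSO (black) cells, each library as a point, lines through the means of 3. RRM2 in DMSO cells lies at 240 to 246 CPM at 12 h and 112 to 116 CPM at 8 h, and NFKBIA is lowest at 8 h.

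Part of the genes of B cell receptor signalling were higher, by small steps. Of 25 measured members, 14 were higher, 1 was lower (SH3BP5) and 10 did not pass, with a median of 0.194, against 13.4% higher and 12.4% lower over all genes. PTPN6, the phosphatase SHP-1 that restrains the receptor, was at 617, 603 and 632 CPM at 12 h, against 416, 406 and 396 CPM at 8 h (0.60 ± 0.04, edgeR adjusted p = 8.6e-11). CR2, the complement receptor CD21, was at 326, 317 and 317 CPM at 12 h, against 235, 236 and 229 CPM at 8 h (0.46 ± 0.04, edgeR adjusted p = 4.6e-09). The groups lay apart in both genes. The kinase genes SYK (0.39 ± 0.05) and BTK (0.32 ± 0.05) were higher as well, and LYN, at −0.07, did not pass. SH3BP5, an inhibitor of BTK, averaged 31.8 ± 0.92 CPM at 12 h and 43.1 ± 1.2 CPM at 8 h (−0.44 ± 0.06). Of 20 B cell identity genes, 7 were higher, none was lower and 13 did not pass (median 0.081). They included MS4A1, which encodes CD20, at 287 ± 13 CPM at 12 h and 227 ± 5.5 CPM at 8 h (0.33 ± 0.06). PAX5 and EBF1, which set B cell fate, did not pass, at 0.10 and 0.00.

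Of 15 plasma cell genes, 5 were lower and 3 higher (median −0.11), against 12.4% and 13.4% of all genes, but 1 was higher without replicate 1 at 12 h and none without replicate 3 at 12 h. JCHAIN, the joining chain of secreted IgM and IgA, was at 87.6, 84.8 and 79.7 CPM at 12 h, against 159, 159 and 157 CPM at 8 h (−0.92 ± 0.06, edgeR adjusted p = 2.4e-11). PRDM1, the plasma cell factor BLIMP-1, was at 28.9, 27.4 and 28.6 CPM at 12 h, against 40.1, 43.7 and 39.3 CPM at 8 h (−0.54 ± 0.08, edgeR adjusted p = 7.5e-06). Both were lower in each 12 h library. CD38 did not pass, at −0.16, and IRF4 was at 0.03.

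Chaperones of the endoplasmic reticulum (ER) were among the lower genes. Of 22 measured genes of the unfolded protein response, 14 were lower, none was higher and 8 did not pass (median −0.185), against 12.4% lower over all genes. HSPA5, the ER chaperone BiP, was at 428, 416 and 420 CPM at 12 h, against 623, 654 and 608 CPM at 8 h (−0.58 ± 0.04, edgeR adjusted p = 1.5e-10). HSP90B1, the ER form of HSP90, averaged 574 ± 16 CPM at 12 h and 814 ± 22 CPM at 8 h (−0.50 ± 0.06, edgeR adjusted p = 1.8e-07). The groups did not overlap in either gene. XBP1, a transcription factor of the response that also drives plasma cells, was at −0.19 ± 0.05 (edgeR adjusted p = 0.0024).

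Part of the genes of cholesterol synthesis and of the MYC targets were lower by small amounts. Of 24 measured genes of cholesterol synthesis and uptake, 14 were lower, 1 was higher (FDPS) and 9 did not pass (median −0.238), where 12.4% of all genes were lower and 13.4% higher. HMGCS1, which makes the precursor of mevalonate, was at 166, 163 and 157 CPM at 12 h, against 215, 225 and 211 CPM at 8 h (−0.43 ± 0.05, edgeR adjusted p = 1.6e-07). SCD, which desaturates fatty acids, averaged 280 ± 9.6 CPM at 12 h and 389 ± 5.2 CPM at 8 h (−0.47 ± 0.04, edgeR adjusted p = 1.5e-09), in a fatty acid list with 3 of 16 members lower, 2 higher and 11 not past the threshold, near the shares over all genes. Of 35 MYC and nucleolar targets, 20 were lower, none was higher and 15 did not pass (median −0.184). Without the 4 h copanlisib replicates 1 and 2, 3 members were higher. MYC itself was at 155, 151 and 163 CPM at 12 h, against 191, 177 and 190 CPM at 8 h (−0.25 ± 0.05, edgeR adjusted p = 1.3e-04). ODC1, the first enzyme of polyamine synthesis, averaged 95 ± 3.7 CPM at 12 h and 129 ± 3.8 CPM at 8 h (−0.44 ± 0.05), and NOLC1, a nucleolar phosphoprotein, 274 ± 2.0 CPM at 12 h and 334 ± 5.5 CPM at 8 h (−0.28 ± 0.04). Every 12 h library was below the 8 h range for the named genes. Of 40 cytosolic ribosomal protein genes, 5 were lower and none was higher, a share near that over all genes. The 5 became 1 without replicate 2 at 12 h or replicate 1 at 8 h, 3 without replicate 2 at 8 h, 11 without replicate 3 at 12 h and 13 without the 4 h copanlisib replicates 1 and 2. Their counts are uncertain because of many processed copies.

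Immediate early genes, which mitogens switch on within minutes, moved both ways. Of 27 measured members, 8 were higher and 6 lower, with a median of 0.0554, against 13.4% and 12.4% of all genes. Without replicate 2 at 8 h, 5 were higher. FOSB, an AP-1 subunit, was at 1.00, 1.28 and 0.78 CPM at 12 h, against 3.59, 4.90 and 4.04 CPM at 8 h (−2.03 ± 0.20, edgeR adjusted p = 2.5e-08), and FOS at 1.78, 1.46 and 1.56 CPM at 12 h, against 3.31, 4.48 and 4.63 CPM at 8 h (−1.34 ± 0.18, edgeR adjusted p = 3.1e-06). JUNB, another AP-1 subunit, was at 146, 147 and 151 CPM at 12 h, against 105, 100 and 101 CPM at 8 h (0.54 ± 0.07, edgeR adjusted p = 1.9e-06). FOSB and FOS were lower and JUNB higher, with no overlap of the groups. DUSP2, a phosphatase of ERK, averaged 334 ± 26 CPM at 12 h and 221 ± 4.5 CPM at 8 h (0.60 ± 0.11). EGR1 was at −0.28 ± 0.09 (edgeR adjusted p = 0.022), a call that was lost without replicate 1 or 2 at 12 h or replicate 1 or 3 at 8 h (edgeR adjusted p = 0.068 to 0.12).

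Of 24 measured members of a list of FOXO factors, their targets and quiescence genes, 7 were lower, 2 were higher and 15 did not pass (median −0.13), against 12.4% lower and 13.4% higher over all genes. TXNIP, an inhibitor of thioredoxin and of glucose uptake, was at 31.9, 32.4 and 27.8 CPM at 12 h, against 71.1, 78.2 and 75.0 CPM at 8 h (−1.29 ± 0.07, edgeR adjusted p = 2.5e-13). SESN1, a stress regulator, was at 10.3, 10.7 and 9.82 CPM at 12 h, against 18.7, 17.3 and 18.3 CPM at 8 h (−0.82 ± 0.08, edgeR adjusted p = 3.2e-08). The groups were apart in both genes. SESN3, a relative of SESN1, was among the higher members, at 0.26.

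The rest of the 12 highest protein-coding fold changes had varied roles. ID3, which blocks E proteins in B cells, was at 180, 176 and 190 CPM at 12 h, against 87.7, 87.7 and 86.8 CPM at 8 h (1.06 ± 0.07, edgeR adjusted p = 1.3e-11). DPYD, the first enzyme of pyrimidine breakdown, was at 1.08 ± 0.09 and MACROD2, which removes ADP-ribose from proteins, at 1.09 ± 0.10. ASRGL1, an asparaginase, was at 1.04 ± 0.08, NCF4, a subunit of the phagocyte NADPH oxidase, at 1.02 ± 0.09, and OSBPL10, a lipid transfer protein, at 0.99 ± 0.09. CHAC1, which breaks down glutathione, was at 12.0, 12.0 and 12.1 CPM at 12 h, against 5.92, 6.12 and 6.25 CPM at 8 h (0.98 ± 0.11, edgeR adjusted p = 1.1e-07). Of the lowest, FABP3, a fatty acid binding protein, averaged 3.56 ± 0.34 CPM at 12 h and 11 ± 1.7 CPM at 8 h (−1.61 ± 0.12). Among genes of other biotypes, LINC01749 (0.92 ± 0.12) and the pseudogene CMAHP (0.89 ± 0.09) were the highest, and GAPDHP1, a copy of GAPDH whose count is uncertain, was among the lowest (−0.70 ± 0.10).

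Cells given copanlisib passed through most of the same changes between 8 and 12 h. The copanlisib and DMSO comparisons share no library. In copanlisib cells 4157 of the 16122 genes passed between 12 and 8 h (25.8%), and 2649 genes passed in both arms, 63.7% of the copanlisib calls and 63.8% of the DMSO calls. Of the 4151 genes called in DMSO cells, 4030 had the same sign in copanlisib cells (97.1%, Wilson 95% interval 96.5% to 97.6%, which treats genes as independent, though they are not), against 76.6% of all genes. Across all genes Pearson's r between the log2 fold changes of the arms was 0.64, and 0.867 over the genes called in DMSO, which genes of shared pathways do not make independent points. The median ratio of the copanlisib to the DMSO log2 fold change was 0.77 over genes that were chosen by their change in DMSO. Of the 229 genes that changed at least 2-fold in DMSO cells, 212 kept their sign.

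**Figure D5:**
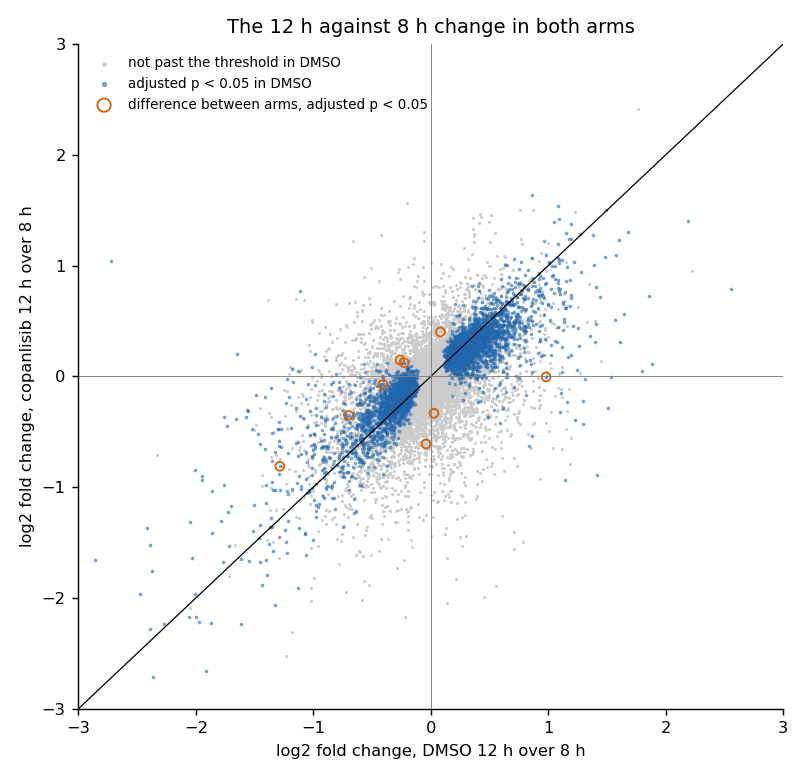
Log2 fold change of 12 h over 8 h in copanlisib cells (vertical axis) against that in DMSO cells (horizontal axis), one point per gene, with the line of equal change. Blue points passed in DMSO cells, orange circles mark the 9 genes whose change differed between the arms, and 10 genes beyond 3 on either axis are not shown.

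The chaperone falls were of like size in both arms. HSPA6 changed by −2.23 with copanlisib and −2.27 with DMSO, DNAJB1 by −1.65 with copanlisib and −1.62 with DMSO, and the heat shock list had 16 lower members with copanlisib and 17 with DMSO (medians −0.268 and −0.285). Over all genes 11.6% were lower with copanlisib and 12.4% with DMSO, and 14.1% were higher with copanlisib and 13.4% with DMSO. The glycolysis and hypoxia list had 21 lower members with copanlisib and 22 with DMSO, with medians of −0.503 and −0.533. Replication genes differed more in size: 23 of 30 were higher with copanlisib and 28 with DMSO, with medians of 0.271 and 0.498. The point estimate was smaller with copanlisib in 28 of the 30. Over all genes called in DMSO the median ratio of copanlisib to DMSO was 0.77. These genes were chosen by their change in DMSO, which by itself can lower the ratio. That value therefore cannot show whether the smaller rise was particular to this list. RRM2 changed by 0.87 with copanlisib and 1.09 with DMSO, and CDC45 by 0.47 with copanlisib and 0.89 with DMSO. Of MYC and nucleolar targets, 5 were lower and 1 higher with copanlisib, while 20 were lower with DMSO (medians −0.0458 and −0.184). None of these lists held a member whose change differed between the arms in the test of the difference itself.

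That test, the change in copanlisib minus the change in DMSO, passed for 9 genes (0.0558% of the genes tested), 6 positive (0.0372%) and 3 negative (0.0186%), with 1196 at an unadjusted p under 0.05. Without replicates 1 and 2 of copanlisib at 4 h, it passed for 176 of 17007 genes (1.03%), 94 positive and 82 negative. These then included 7 replication genes whose rise was smaller with copanlisib (CCND3, CDT1, CDC45, MCM4, MCM5, RRM2 and TK1) and CCND2 with the opposite sign. In the heat shock list HSPA8 passed in that fit, in the glycolysis and hypoxia list ADM and PGK1, and among MYC and nucleolar targets TSR1. With all libraries the largest difference was in CHAC1, which was at 5.15, 4.08 and 3.68 CPM at 12 h and 4.26, 4.30 and 4.39 CPM at 8 h with copanlisib, and at 12.0, 12.0 and 12.1 CPM at 12 h and 5.92, 6.12 and 6.25 CPM at 8 h with DMSO. The 12 h libraries stood apart from the 8 h libraries only with DMSO, and the difference was −0.99 ± 0.17 (edgeR adjusted p = 0.025). ATF4, the transcription factor of the amino acid response and a regulator of CHAC1, was at 241, 236 and 228 CPM at 12 h and 288, 302 and 297 CPM at 8 h with copanlisib, and at 303, 308 and 306 CPM at 12 h and 302, 301 and 298 CPM at 8 h with DMSO (difference −0.36 ± 0.06, edgeR adjusted p = 0.015). In the list of ATF4 and amino acid response genes, 15 of 29 were lower and 1 higher with copanlisib, and 8 lower and 3 higher with DMSO. Over all genes 11.6% were lower and 14.1% higher with copanlisib, and 12.4% lower and 13.4% higher with DMSO.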

How the data were processed

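RNA was sequenced from 18 HAIR-M libraries, and the authors deposited raw read counts per gene for each, unnormalized. CASAVA 1.7, STAR 2.5.2b and hg38 are named per the submitters' processing notes. For the annotation version, the sources used here name none. Counts of 1 strand column (94.3% to 95.3% of stranded reads) were used, and reads mapping to several places were not counted. Summary lines, 1.74% to 2.16% unmapped, 9.28% to 9.85% multimapping, 10.9% to 12.0% on no gene and 2.37% to 2.42% ambiguous in the 6 libraries, stayed out. With R 4.3.3 and edgeR 4.0.16, 16122 of 35239 genes with a read passed filterByExpr. They were TMM-scaled and fitted with 1 mean per group over all 18 libraries (glmQLFit, glmQLFTest, two-sided, 12 residual degrees of freedom), adjusted over all genes tested. Run on data simulated with the same spread for every gene, the fit recovered 22 of 50 genes changed 1.25-fold. It recovered 34 of 50 at 1.5-fold, 43 of 50 at 2-fold and 49 of 50 at 4-fold, with 8 false among 156 calls. A gene that did not pass may therefore still have changed by a small amount. SE is the size of the log2 fold change over the square root of F. Of 782 entries in 37 gene lists, 780 matched. Members and lists were chosen with earlier results of these data known. Named genes are the 12 highest and 12 lowest protein-coding fold changes among called genes whose log2 CPM averaged 3 or more and whose libraries did not overlap (antigen receptor segments left out), the 3 highest and lowest of other biotypes, 3 per list by smallest p, 12 fixed genes and 4 each way for the difference between arms. Other list members were named after their values were seen. Some genes are not reported here. No 2 replicates agreed within sampling noise (chi-square per gene 1.52 to 2.87 in the 6 libraries, where 1 is noise). Alternatives were DESeq2 size factors, no filter, DESeq2 1.42.0, limma-voom 3.58.1, counts without strand, a replicate block, fewer libraries and a stricter threshold. Promoters are from RefSeq (GRCh38.p14) and gene positions from GENCODE 29.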

Additional observations from a re-analysis of the deposited data

Results flagged for a closer look

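The change between 8 and 12 h differed between the arms, by the test of the difference itself (edgeR's quasi-likelihood interaction, copanlisib minus DMSO, log2 scale), for 9 genes, 8 of which are given here. The arms share no library. CHAC1, which breaks down glutathione, differed by −0.99, ATF4 by −0.36 and UPP1, a uridine phosphorylase, by −0.57 (edgeR adjusted p = 0.025, 0.015 and 0.042). UPP1 fell in copanlisib cells by 0.61 ± 0.08 on the log2 scale, and was at −0.04 ± 0.08 in DMSO cells. TXNIP differed by 0.47, at −0.81 ± 0.06 in copanlisib cells and −1.29 ± 0.07 in DMSO cells. PEA15, an adaptor that holds ERK in the cytoplasm, differed by 0.35, at 0.12 ± 0.05 in copanlisib cells and −0.23 ± 0.05 in DMSO cells. PIM2, a survival kinase, differed by 0.33, IGHG3, an immunoglobulin heavy chain constant gene, by 0.35, and PLIN2, which coats lipid droplets, by 0.32. The adjusted p of these last 5 genes lay between 0.037 and 0.042. No gene passed this test when replicate 1, 2 or 3 of DMSO at 12 h, or replicate 1 or 3 of DMSO at 8 h, was left out (1012 to 1113 genes at an unadjusted p under 0.05), and 5 passed without replicate 2 at 8 h. With all libraries 27 passed by DESeq2 and 12 by limma-voom. The cause was not tested.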

How the results depend on the processing

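The counts of genes past the threshold in DMSO cells stayed within 1.5 times under 9 of the 10 settings that kept all 6 libraries, but at an adjusted p under 0.01 they were 2646 in all and 1198 lower, with 138 changed at least 2-fold and 2567 in copanlisib cells. DESeq2 gave 133 genes of at least 2-fold. Leaving out each DMSO library in turn gave 3170 to 3446 calls, 1718 to 1924 higher, 1440 to 1583 lower and 194 to 229 of at least 2-fold. The same-sign percentage was 97.6 with DESeq2, 98.6 at an adjusted p under 0.01, 94.9 with only the libraries of the contrast, 94.8 without replicates 1 and 2 of copanlisib at 4 h, and 97.4 to 97.7 without each DMSO library. The difference between arms passed for 35 genes without a filter, 27 with DESeq2, 5 without strand, 273 with only the 12 libraries of 8 and 12 h, 176 without replicates 1 and 2 of copanlisib at 4 h, none at an adjusted p under 0.01, and 0 to 5 without 1 DMSO library. The cause was not tested. Libraries of the same replicate number at 12 and 8 h had correlations of deviations of −0.121, 0.0774 and −0.0478. Over all 45 same-number pairs of libraries these ran from −0.35 to 0.396. Whether the numbers pair the samples is not settled by these values. A replicate block gave 4149 calls, 2154 higher and 1995 lower. Over named genes, 2048 values kept direction and call, 24 lost the call, 4 gained it and 1 reversed: UPP1, not called, which lay between −0.079 and 0.005 when a DMSO library was left out (0.005 without replicate 2 at 12 h). COL1A1, EGR1, RPL11, RPL14, BCL2L2, MT-ND3, DTX1 and ACLY lost theirs. The median of all genes lay between −0.016 and 0 in every setting. The median log2 fold change was −0.04 in the 20% of genes with the lowest and 0.03 in the 20% with the highest GC content. Of those with the lowest GC content 371 were called higher and 452 lower, and of those with the highest 507 higher and 232 lower. The part of GC content in the calls was not tested. Depth limits genes under about 1 CPM.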

Other observations

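Some smaller gene groups are not described above, and their counts stand against 13.4% higher and 12.4% lower over all genes tested. Of 27 measured lysosome and autophagy genes, 10 were lower at 12 h and none was higher (median −0.10). They included BNIP3L, which like BNIP3 marks mitochondria for removal, at 70.7, 66.2 and 70.1 CPM at 12 h, against 140, 125 and 129 CPM at 8 h (−0.93 ± 0.06, edgeR adjusted p = 5.1e-12), and CTSD, the protease cathepsin D (−0.50 ± 0.08). Of 22 HLA and antigen presentation genes, 11 were lower and 2 higher. HLA-DQB1 averaged 483 ± 19 CPM at 12 h and 725 ± 21 CPM at 8 h (−0.59 ± 0.05), and HLA-DOB, which with HLA-DOA restrains peptide loading, was higher (0.44 ± 0.10). Counts of HLA genes are uncertain because of their sequence variation. Of 25 nuclear genes of the respiratory chain, 7 were higher and 1 lower, and of 13 mitochondrial genome transcripts, 3 were higher and none was lower, with MT-CYB at 0.21 ± 0.05. Without the 4 h copanlisib replicates 1 and 2, these were 12 and 8 higher members, and without replicate 1 or 3 at 12 h or replicate 3 at 8 h, 4 respiratory chain genes were higher.

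Of 16 circadian clock genes, 6 were lower and 2 higher. PER3, a clock repressor, averaged 0.786 ± 0.25 CPM at 12 h and 2.09 ± 0.03 CPM at 8 h (−1.41 ± 0.26, edgeR adjusted p = 2.1e-04), while its relatives PER1 and PER2 were higher at 0.38 and 0.28 and BMAL1 did not pass (0.02). Of 26 PI3K, AKT and mTOR components, 5 were lower and 4 higher, near the shares over all genes, and 2 or 3 were lower when a DMSO library other than replicate 2 at 12 h was left out. PIM1 averaged 24.6 ± 0.46 CPM at 12 h and 39.6 ± 3.8 CPM at 8 h (−0.69 ± 0.07), and PIM2 181 ± 1.2 CPM at 12 h and 240 ± 12 CPM at 8 h (−0.41 ± 0.05). Of 17 migration and adhesion receptors, 4 were lower and 2 higher, and 2 were lower without replicate 2 at 12 h or replicate 3 at 8 h. RGS2, which dampens G protein signals, was at −0.91 ± 0.10, and GPR183, a receptor that guides B cells to follicle borders, at 495 ± 16 CPM at 12 h and 364 ± 4.5 CPM at 8 h (0.45 ± 0.05). HEY1, a NOTCH target, averaged 62.0 ± 2.5 CPM at 12 h and 38.4 ± 0.13 CPM at 8 h (0.69 ± 0.06). NQO1, a target of the oxidative stress factor NRF2, was higher (0.77 ± 0.07) and HMOX1, another target, lower (−0.55 ± 0.07).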
